A study of Mus musculus with 4 samples.

Results

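A set of 9 genes of the interferon pathway and of antiviral RNA sensing were described by the circular RNAs (circRNAs) that they give in primary mouse articular chondrocytes, the resident cells of joint cartilage. The genes were Irf1, Irf2, Stat2, Trim25, Znfx1, Herc6, Eif2ak2, Rnf213 and Ddx58. A circRNA was counted for a gene when both ends of its back-splice junction lay inside the RefSeq span of that gene in mm10, with a tolerance of 1 bp. This gave 49 of the 40909 circRNAs read in the series. Each of the 9 genes held at least 1, as by definition did all 6930 host genes. The IL-1β group was 2 libraries from passage 1 to 3 chondrocytes that had been thawed, plated and given recombinant human interleukin-1β (IL-1β), an inflammatory cytokine, at 10 ng/ml for 24 h. The reference was 2 libraries from chondrocytes whose source label names no IL-1β, although their treatment text is the same as that of the IL-1β libraries. The labels give no mouse strain or age. Nor do they tell if replicates came from separate animals or cultures, so the p-values reflect how much these particular libraries vary, possibly for technical reasons alone.

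Interferons are secreted after cells sense viral RNA or DNA and act through receptors and STAT proteins to switch on antiviral genes. Among the factors studied here, IRF1 activates and IRF2 mainly opposes transcription at interferon-responsive sites, and STAT2 works with IRF9 in the answer to type I interferon. RIG-I (encoded by Ddx58) and ZNFX1 detect double-stranded RNA, and the ubiquitin ligase TRIM25 has been linked to RIG-I activation. Among the interferon-induced effectors, PKR (encoded by Eif2ak2) stops translation when double-stranded RNA is bound, HERC6 is the mouse ligase that attaches the ubiquitin-like protein ISG15, and RNF213 is a very large ubiquitin ligase with antimicrobial activity. CircRNAs are closed loops made by back-splicing, and in human cells some have been reported to bind PKR. Each was measured by reads that cross its back-splice junction, so the values below are circRNA levels and not the mRNA level of the gene.

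The promoters of these genes were searched for the letters that interferon signalling is known to use. The genes were chosen as interferon and antiviral genes, so the shares below are a description of that choice and not independent support. The core of the interferon-stimulated response element (ISRE) was written as GAAA and GAAA with any 2 bases between them and the gamma-activated sequence (GAS) as TTC and GAA with any 3 bases between them, and both strands were searched over 250 bases before to 50 bases after each RefSeq gene start (GRCm38.p6). All 9 genes had a promoter in the table, 11 promoters in all. The ISRE core stood in 4 of the 9 genes (Irf2, Stat2, Eif2ak2 and Ddx58), against 3.99% of the 27025 genes with a promoter in the table. GAS letters stood in 3 of the 9 (Irf1, Irf2 and Eif2ak2), against 9.55% of all genes, and neither motif stood in the windows of Trim25, Znfx1, Herc6 or Rnf213. The windows of 30 bases that hold these motifs follow, 5′ to 3′ on the strand of the gene, with the motif letters in capitals. The capital letters are alike because the search asked for them, and a match is a description of letters, not of binding.
Irf2 (chr8:46739502-46739531, plus strand, ISRE core then GAS): gtGAAAATGAAAttgacttTTCCGAGAAat
Stat2 (chr10:128270266-128270295, plus strand, ISRE core in reverse complement): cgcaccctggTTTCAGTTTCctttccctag
Eif2ak2 (chr17:78882535-78882564, minus strand, ISRE core): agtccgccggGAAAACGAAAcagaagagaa
Ddx58 (chr4:40239804-40239833, minus strand, ISRE core in reverse complement): cctgaggcagTTTCGATTTCctatggccag
Irf1 (chr11:53769914-53769943, plus strand, GAS): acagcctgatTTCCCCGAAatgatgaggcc
Eif2ak2 (chr17:78882731-78882760, minus strand, GAS): ctgcagagctTTCCCAGAAtggaagccagg
In Irf2 the ISRE core and the GAS letters lay in the same 30 bases, at -241 to -216 bases from the gene start. The ISRE cores of Eif2ak2 and Ddx58 lay just after the start, at 18 to 27 and 2 to 11 bases from it.

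Sequencing depth was 895774 and 980542 junction reads in the IL-1β libraries, against 1198010 and 1203855 in the controls. The 9 genes together gave 239 and 408 reads in the IL-1β libraries, against 573 and 571 in the controls. In CPM, the read count scaled to the junction reads of the library, this was 267 and 416 under IL-1β, against 478 and 474 in the controls. IL-1β replicate 1 was thus the lowest library, and IL-1β replicate 2 was closer to the controls than to it. In these bulk samples, fewer cells of a type and less RNA per cell cannot be told apart. CircRNAs of 4 of 17 chondrocyte marker genes were read, 243 and 317 reads under IL-1β, against 481 and 279 in the controls, and the defining markers Col2a1, Acan and Sox9 were at 0, which says nothing of their mRNA. The macrophage list, whose cells express many interferon genes, had reads in 1 of 10 genes, 9 and 8 under IL-1β, against 15 and 0 in the controls, with Ptprc, Csf1r and Adgre1 at 0. Endothelial markers had reads in 2 of 7 genes, 139 and 114 under IL-1β, against 116 and 140 in the controls. Nearly all came from Flt1, with 501 reads over the 4 libraries, and Cdh5, Kdr, Tek, Tie1 and Emcn were at 0. Osteoblast markers had reads in 3 of 8, 471 and 484 under IL-1β, against 380 and 578 in the controls. Fibroblast markers had reads in 7 of 11, 102 and 78 under IL-1β, against 233 and 312 in the controls, and their part in the results below was not tested.

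Of the 49 circRNAs, 8 (16.3%) were read in all 4 libraries and carried 67.6% of the reads of these genes. Over all 40909 circRNAs the share was close to this, 16.8%, but those circRNAs carried 85.0% of the reads. The 8 came from 4 genes: circRNA.37241, circRNA.37242, circRNA.37243 and circRNA.37246 of Irf2, circRNA.556 and circRNA.557 of Stat2, circRNA.32955 of Herc6 and circRNA.2831 of Rnf213. Another 29 (59.2%) had reads in a single library and carried 14.0% of the reads, against 58.6% and 5.23% over all circRNAs. No circRNA of these genes was read in both IL-1β libraries and neither control, or the reverse, patterns that 2.45% and 2.72% of all circRNAs showed. All 49 lay on the strand that holds every other circRNA of their gene. Their median extent was 5760 bp between junction ends against 10569 bp over all circRNAs. The range was wide, from 732 to 48936 bp, and circRNA.37242 and circRNA.37241 of Irf2 spanned 25415 and 14258 bp. Of the 49, 38 (77.6%) shared an end with another circRNA of the gene, against 77.9% of all circRNAs with a host gene.

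The comparison that the study made, IL-1β against control, was first run on the output of each gene, the sum of its junction reads. Irf2 gave the most of the 9, 678 reads over the 4 libraries, more than 84.2% of all host genes. Stat2 gave 461 reads, Rnf213 274, Herc6 131, Eif2ak2 88, Trim25 74, Irf1 34, Znfx1 27 and Ddx58 24. Values were lower with IL-1β in 8 of the 9 genes, all but Herc6, where 52% of the 4879 genes tested had a log2 change below 0. The median log2 change was -0.98 over the 9 genes and -0.03 over all genes tested. The 3 genes with the most reads had values nearer 0 than that median, between -0.61 and -0.33. Without IL-1β replicate 1, 7 of the 9 genes were below 0, with Stat2 at -0.06, Rnf213 at -0.04 and Eif2ak2 at 0.0085. The genes were chosen with earlier results of these data known, so the direction count and the median are a description only.

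**Figure D1:**
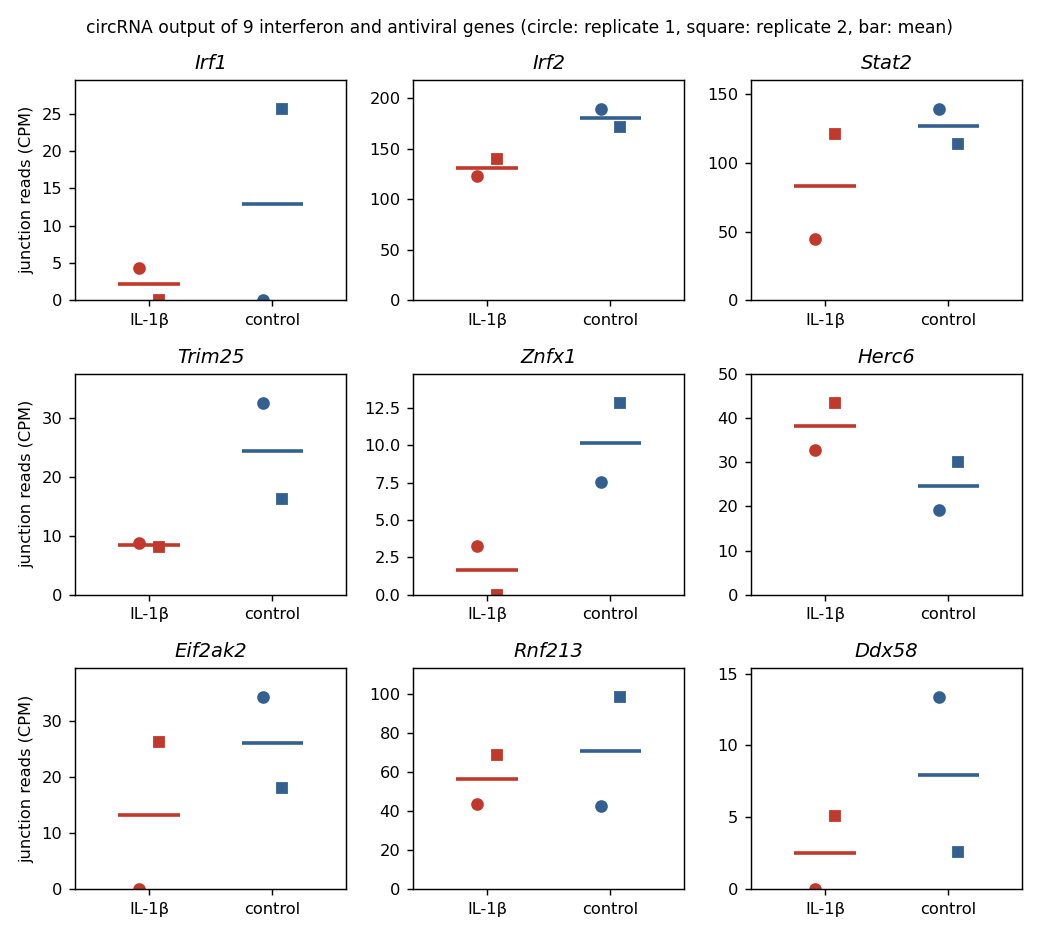
Junction reads per gene in CPM (counts over the TMM-scaled total of junction reads, vertical axis, a separate scale for each gene). The 2 IL-1β libraries are red (left) and the 2 control libraries blue (right). Circles mark replicate 1, squares replicate 2 and bars group means. Both IL-1β libraries stood below both controls for Irf2, Trim25 and Znfx1 and above both for Herc6, and the groups overlapped for the other 5 genes.

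In edgeR's quasi-likelihood fit, 0 of the 9 genes reached an adjusted p under 0.05, as 0 of all 4879 did (0%). None had an unadjusted p under 0.05, which 4.55% of all genes had. None of the 6 with an adjusted p in DESeq2 (all but Irf1, Znfx1 and Ddx58) passed there. Over all 4879 genes, with those lacking an adjusted p counted in, 1.13% did. Both IL-1β libraries lay below both controls for 3 of the 9, against 18.9% of all genes, and above both for 1 of the 9, against 17% of all genes. With 9 genes these counts are a description only.

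**Figure D2:**
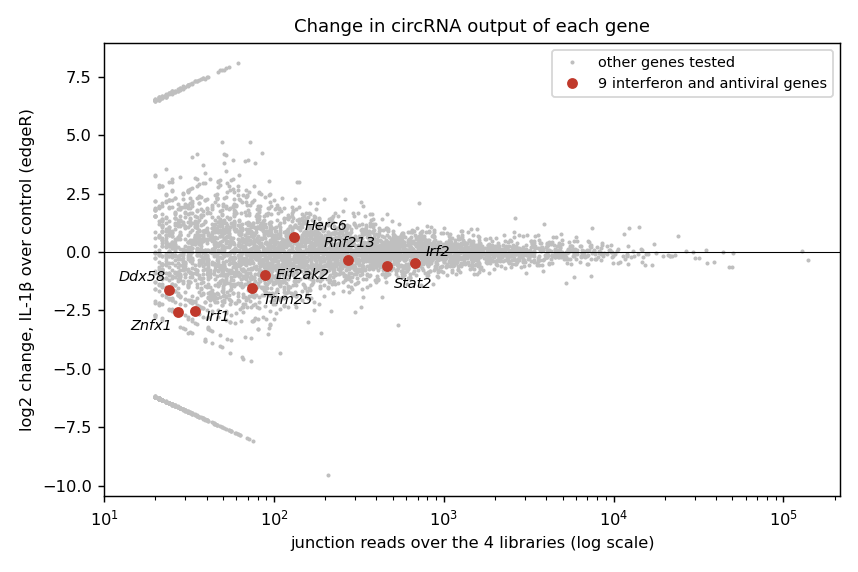
Log2 change in circRNA output, IL-1β over control (vertical axis), against junction reads over the 4 libraries (horizontal axis, log scale) for 4879 genes in grey and the 9 interferon and antiviral genes in red. The 9 points lie inside the grey cloud, whose scatter widens at low reads. The outer grey streaks are genes with 0 reads in both libraries of a group, whose fitted value depends on the model's prior count.

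Of the transcription factors, Irf2 had the narrowest error. Its 8 circRNAs (gene at chr8:46739745-46847458) gave 113 and 138 reads under IL-1β, against 227 and 200 in the controls. Normalised, Irf2 stood at 131 ± 11.5 CPM under IL-1β, against 181 ± 13.1 CPM in the controls (mean ± SD, n = 2 each, where CPM here and below is on the TMM-scaled library total). The groups did not overlap, but the log2 change of -0.46 ± 0.32 (SE) had an adjusted p of 0.908 in edgeR.

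The Irf2 circRNA with the most reads in control was circRNA.37242 (chr8:46793493-46818908, plus strand), with 17 and 28 reads under IL-1β, against 99 and 107 in the controls. Both IL-1β libraries stood well below both controls. It stood at 23.7 ± 7.08 CPM under IL-1β, against 86.2 ± 2.01 CPM in the controls (n = 2 each), 3.64-fold lower with IL-1β and a log2 change of -1.86 ± 0.52 (SE). Its p in edgeR was 0.0105 unadjusted and 0.886 adjusted over 15333 circRNAs, of which 3 passed an adjusted 0.05 (0.0196%) and 3.44% had an unadjusted p under 0.05. In DESeq2 the adjusted p was 0.0426, and 106 of the 15333 circRNAs (0.691%) passed. DESeq2 gave no adjusted p to some of the more thinly read circRNAs, so its adjustment covered fewer circRNAs than edgeR's. Over the other settings and with each library left out, the adjusted p in edgeR ran from 0.547 to 1.00, and the log2 change from -2.22 to -1.60.

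The remaining 7 circRNAs of Irf2 together had 96 and 110 reads under IL-1β, against 128 and 93 in the controls, or 105 and 111 CPM under IL-1β, against 107 and 79.6 CPM in the controls, values that overlap. The next most read, circRNA.37241 (chr8:46793493-46807751), had 41 and 58 reads under IL-1β, against 71 and 57 in the controls. Its groups overlapped, at 52.3 ± 10.2 CPM under IL-1β, against 53.7 ± 9.98 CPM in the controls, a log2 change of -0.04 ± 0.50 (SE, edgeR adjusted p = 1.00). The longest, circRNA.37243 (chr8:46793493-46837838), had 35 and 24 reads under IL-1β, against 25 and 21 in the controls. In CPM both of its IL-1β libraries lay above both controls, 31.5 ± 9.81 under IL-1β, against 19.3 ± 2.98 in the controls, a log2 change of 0.71 ± 0.86 (SE, edgeR adjusted p = 1.00).

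**Figure D3:**
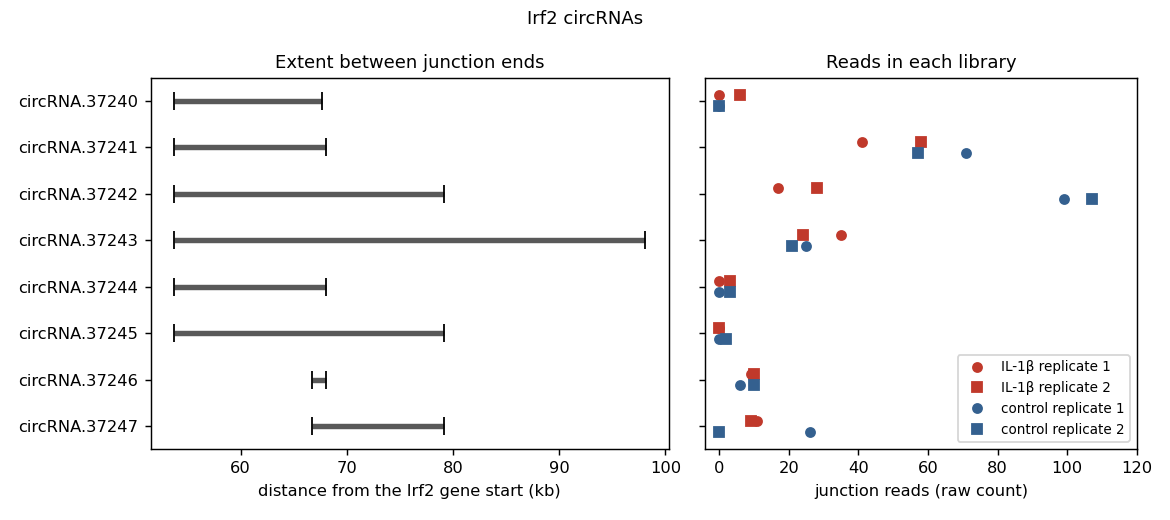
The 8 Irf2 circRNAs, drawn on the left by the distance of their junction ends from the gene start (kb), with raw junction reads in each library on the right (IL-1β red, control blue, circles for replicate 1 and squares for replicate 2). The IL-1β and control points are far apart for circRNA.37242, at 17 and 28 reads under IL-1β, against 99 and 107 in the controls, and lie close together for circRNA.37241.

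These circles are built on a shared upstream end. The start 46793493, the upstream end on the plus strand, was joined to 4 different downstream ends, and these 4 circRNAs held 589 of the 678 Irf2 reads. A pair of minor junctions, circRNA.37244 and circRNA.37245, lay 5 nt further on at both ends than circRNA.37241 and circRNA.37242 and held 8 reads together. With such neighbours summed, the log2 change at circRNA.37242 was -1.87 ± 0.52 (SE). The downstream end of circRNA.37242 at 46818908 was also used by circRNA.37247 (chr8:46806471-46818908), which had 11 and 9 reads under IL-1β, against 26 and 0 in the controls. For circRNA.37247 control replicate 1 was highest and control replicate 2 had none.

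As a share of all Irf2 junction reads, circRNA.37242 made up 15.0% and 20.3% in the IL-1β libraries, against 43.6% and 53.5% in the controls. The exact Clopper-Pearson 95% intervals take each read as an independent draw and leave out variation between libraries. PCR copies are not independent molecules, so these intervals may be too narrow even for counting error. They were 9.01% to 23.0% and 13.9% to 28.0% under IL-1β, against 37.1% to 50.3% and 46.3% to 60.6% in the controls. The IL-1β and control intervals did not overlap. For circRNA.37241 the shares were 36.3% and 42.0% under IL-1β, against 31.3% and 28.5% in the controls, and for circRNA.37243 31.0% and 17.4% under IL-1β, against 11.01% and 10.5% in the controls. Shares within a gene are tied, so a lower share of circRNA.37242 by itself raises those of the other circles. Whether circRNA.37242 differed from the rest of its gene was tested across all genes with edgeR's diffSpliceDGE, a test chosen after these values were seen. Against the rest of Irf2 its log2 change was -1.39. The adjusted p in edgeR was 1.00 over 13473 circRNAs, of which 0.0668% passed, and the unadjusted value was 0.0788, so this difference in composition did not pass. None of the 14 circRNAs of these genes in that test passed.

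**Figure D4:**
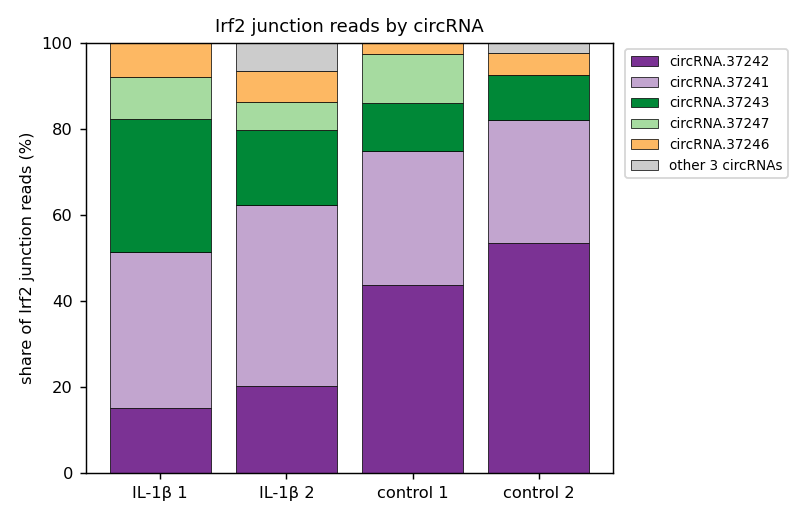
Share of Irf2 junction reads (%, vertical axis) held by each circRNA in the 2 IL-1β libraries (left) and the 2 control libraries (right). The dark purple segment, circRNA.37242, spans 15.0% and 20.3% in the IL-1β libraries, against 43.6% and 53.5% in the controls.

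Stat2 (chr10:128270498-128292853) gave 41 and 120 reads from 4 circRNAs under IL-1β, against 167 and 133 in the controls. IL-1β replicate 1 was low and IL-1β replicate 2 lay between the controls once scaled, at 83.0 ± 54.2 CPM under IL-1β, against 127 ± 18.2 CPM in the controls (n = 2 each). The log2 change was -0.61 ± 0.52 (SE, edgeR adjusted p = 0.991), and it was -0.06 without IL-1β replicate 1 and -1.50 without IL-1β replicate 2. Its main circle, circRNA.557 (chr10:128277644-128278817), had 34 and 72 reads under IL-1β, against 109 and 59 in the controls, and circRNA.556 (chr10:128276486-128278817), which shares its downstream end, had 7 and 45 under IL-1β, against 37 and 60 in the controls. The groups overlapped for both, with log2 changes of -0.35 ± 0.58 and -0.58 ± 0.95 (SE, edgeR adjusted p = 1.00 for each). The share of circRNA.557 in Stat2 reads was 82.9% and 60.0% under IL-1β, against 65.3% and 44.4% in the controls, so the libraries within a group differed by more than the group means.

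Irf1 (chr11:53770014-53778374) had a single circRNA, circRNA.3633 (chr11:53771284-53775103), with 4 and 0 reads under IL-1β, against 0 and 30 in the controls. Nearly all its reads thus came from control replicate 2, and the controls themselves spanned the whole range. The log2 change of its output was -2.50 ± 3.09 (SE, edgeR adjusted p = 1.00). A count of 0 allows up to 3.03 CPM in IL-1β replicate 2 and 2.51 CPM in control replicate 1, taking 3 reads as the limit.

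The RNA sensors Ddx58 and Znfx1 had the fewest reads of the 9 genes. Ddx58 (chr4:40203777-40239825), which encodes RIG-I, had 0 and 5 reads under IL-1β, against 16 and 3 in the controls, from 4 circRNAs that were each read in 1 library only. Its log2 change was -1.61 ± 2.96 (SE, edgeR adjusted p = 1.00), and the IL-1β and control values overlapped. Znfx1 (chr2:167035790-167063015) had 3 and 0 reads under IL-1β, against 9 and 15 in the controls. Its 3 circRNAs were also read in 1 library each, so the groups were apart in the gene sum only, with a log2 change of -2.56 ± 2.91 (SE, edgeR adjusted p = 1.00).

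Trim25 (chr11:88999403-89020294) had 8 and 8 reads under IL-1β, against 39 and 19 in the controls, from 5 circRNAs. Normalised, it stood at 8.41 ± 0.450 CPM under IL-1β, against 24.4 ± 11.5 CPM in the controls (n = 2 each), 2.91-fold lower with IL-1β. The groups did not overlap, and the log2 change of -1.53 ± 1.34 (SE) had an adjusted p of 1.00 in edgeR. Without control replicate 1 it was -0.90. The reads did not come from the same circles in the 2 controls. Control replicate 1 was read at circRNA.4933, circRNA.4935 and circRNA.4936, with 10, 19 and 10 reads, and control replicate 2 at circRNA.4934 and circRNA.4937, with 3 and 16. The main circle, circRNA.4935 (chr11:89004729-89016794), had 3 and 8 reads under IL-1β, against 19 and 0 in the controls, a log2 change of -0.49 ± 3.04 (SE, edgeR adjusted p = 1.00).

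Of the antiviral effectors, Herc6 (chr6:57580992-57665136) was the gene with the higher value with IL-1β. It gave 30 and 43 reads under IL-1β, against 23 and 35 in the controls, or 38.1 ± 7.61 CPM under IL-1β, against 24.6 ± 7.60 CPM in the controls (n = 2 each). The groups did not overlap in CPM, by a narrow gap between 32.7 in IL-1β replicate 1 and 29.97 in control replicate 2, and the log2 change was 0.63 ± 0.80 (SE, edgeR adjusted p = 1.00). Its main circle, circRNA.32955 (chr6:57598429-57626050), had 30 and 23 reads under IL-1β, against 23 and 20 in the controls, and was the only Herc6 circRNA read in IL-1β replicate 1 and in control replicate 1. At 28.3 ± 6.65 CPM under IL-1β, against 18.0 ± 2.35 CPM in the controls its log2 change was 0.65 ± 0.94 (SE, edgeR adjusted p = 1.00). The other 6 Herc6 circRNAs were read in 1 library each, with 2 to 9 reads.

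Eif2ak2 (chr17:78850504-78882572), which encodes PKR, had 0 and 26 reads under IL-1β, against 41 and 21 in the controls. IL-1β replicate 1 had none, which allows up to 3.27 CPM, while IL-1β replicate 2 lay between the controls at 26.3 CPM, against 34.3 and 18.0 CPM in the controls. The log2 change of -0.98 ± 1.67 (SE, edgeR adjusted p = 1.00) was 0.0085 without IL-1β replicate 1. Its circles share their downstream end at 78868757. The main one, circRNA.14411 (chr17:78868757-78876302, minus strand), had 0 and 8 reads under IL-1β, against 30 and 21 in the controls, below both controls in each IL-1β library, with a log2 change of -2.35 ± 2.18 (SE, edgeR adjusted p = 1.00). For circRNA.14410 (chr17:78868757-78874079) the reads were 0 and 18 under IL-1β, against 11 and 0 in the controls, each group with 1 library at 0.

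Rnf213 (chr11:119389950-119487418) had the most circRNAs of the 9 genes, 15, but only 274 reads. It gave 40 and 68 reads under IL-1β, against 51 and 115 in the controls, or 56.2 ± 17.8 CPM under IL-1β, against 70.6 ± 39.5 CPM in the controls (n = 2 each), with control replicate 2 highest. The log2 change was -0.33 ± 0.59 (SE, edgeR adjusted p = 1.00), and 0.40 without control replicate 2. Of the 15 circles, 10 were read in 1 library only, and the 5 others had 30 and 43 reads under IL-1β, against 29 and 59 in the controls. The main one, circRNA.2831 (chr11:119431588-119435103), had 15 and 12 reads under IL-1β, against 25 and 21 in the controls, and circRNA.2832 (chr11:119433411-119435103), which shares its downstream end, had 15 and 14 under IL-1β, against 0 and 9 in the controls. The groups did not overlap in CPM for either, but for circRNA.2831 the gap was narrow, between 16.5 in IL-1β replicate 1 and 17.2 in control replicate 2. The log2 changes had opposite signs, -0.42 ± 1.29 and 2.03 ± 2.57 (SE, edgeR adjusted p = 1.00 for each), but each was smaller than its SE. A pair of Rnf213 circles read in control replicate 2 alone, circRNA.2834 with 12 reads and circRNA.2835 with 17, also lie inside the RefSeq lncRNA A930037H05Rik, so their host is uncertain.

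Over the single circRNAs, 17 of the 49 had at least 20 reads and were tested, and 32 were too thinly read. Of the 17, 12 had a log2 change below 0 and 5 above, where 51.7% of all 15333 tested circRNAs were below 0, with a median of -0.42 against -0.05. As for the gene output, this is a description of genes chosen with earlier results known. Only circRNA.37242 had an unadjusted p under 0.05, and none passed an adjusted 0.05 in edgeR. Both IL-1β libraries lay below both controls for 3 of the 17, against 17.2% of all, and above both for 4 of the 17, against 16.4% of all.

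The same comparison was made for 110 further gene symbols of interferon signalling, RNA and DNA sensing and antiviral defence. CircRNAs were read from 36 of them and 24 had enough reads to test. Values were lower with IL-1β in 17 of the 24 and higher in 7, where 52% of all genes tested were below 0, with a median log2 change of -0.18 against -0.03 over all genes tested. This list too was chosen with earlier results of these data known, so these counts are a description only. None of the 24 passed an adjusted 0.05 in edgeR, and none had an unadjusted p under 0.05, which 4.55% of all genes had. Many of the best known interferon-induced genes, such as Ifit1, Mx1 and Isg15, were not among the 24.

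On the lower side, Traf3, an adaptor and ubiquitin ligase that links RNA sensors to interferon induction, had the most reads, 354 and 141 under IL-1β, against 544 and 573 in the controls. Both IL-1β libraries stood below both controls, with a log2 change of -0.84 ± 0.42 (SE, edgeR adjusted p = 0.882). It was -1.73 without IL-1β replicate 1 and -0.29 without IL-1β replicate 2. The RNA helicase gene Ddx3x was not read in either IL-1β library and had 13 and 21 reads in the controls, which is at least 4.58-fold lower when each IL-1β library is set to 3 reads. That bound is 3.45-fold without control replicate 2 and 5.70-fold without control replicate 1. Traf6, a ubiquitin ligase of IL-1 and Toll-like receptor signalling, had 0 and 2 reads under IL-1β, against 25 and 12 in the controls. Sp100, a nuclear body protein, had 0 and 4 under IL-1β, against 21 and 15 in the controls. These 3 genes had adjusted p-values of 0.882, 0.915 and 1.00 in edgeR.

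On the higher side, the kinase gene Riok3 had 30 and 4 reads under IL-1β, against 0 in both controls, at least 7.24-fold higher on the same floor (edgeR adjusted p = 0.882). That bound rests on IL-1β replicate 1, and without it is 1.59-fold. Samhd1, which depletes the deoxynucleotides that viruses need, had 39 and 83 reads under IL-1β, against 30 and 59 in the controls, with overlapping groups. Tank, a scaffold of the TBK1 kinase, had 25 and 16 under IL-1β, against 17 and 0 in the controls, and Herc4, a relative of Herc6, had 180 and 109 under IL-1β, against 209 and 86 in the controls. Their log2 changes were 0.74 ± 0.65, 1.59 ± 1.94 and 0.30 ± 0.49 (SE), with edgeR adjusted p-values of 0.997, 1.00 and 1.00.

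**Figure D5:**
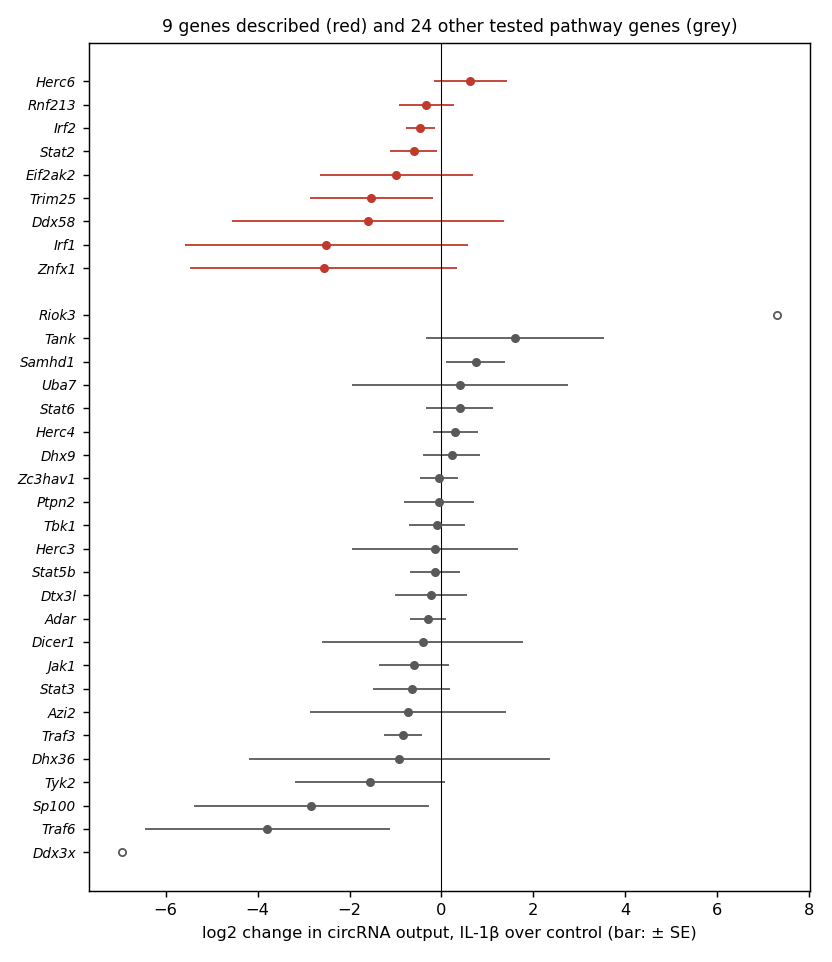
Log2 change in circRNA output, IL-1β over control (horizontal axis, bars ± SE), for the 9 genes (red) and 24 other tested pathway genes (grey). Open symbols without bars are Riok3 and Ddx3x, which had 0 reads in both libraries of a group, so that their fitted value depends on the model's prior count. Most bars reach or lie near 0, and of the 9 genes Herc6 alone lies above 0.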

How the data were processed

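Per the labels' protocols, ribosomal RNA was depleted, RNase R was used to remove linear RNA, and strand-specific libraries followed. The submitters' processing notes name mm10 and Bowtie2. Which caller found the circRNAs, with which filters, is not given in the sources used here. Junction reads were deposited as counts, whole numbers per circRNA and library. SRPBM, also from the authors, is a signal scaled for depth that equals these counts divided by a constant per library. Exon positions were not used here.

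A circRNA inside 1 of the 9 genes was given to it, and any other to the only coding gene, or failing that the only other gene, that held both ends. Features with at least 20 reads over the 4 libraries were tested by quasi-likelihood in edgeR 4.0.16 under R 4.3.3, with TMM factors, without covariates, and with Benjamini-Hochberg adjustment over all features tested. A standard error (SE) was taken as the log2 change over the root of F. Alternatives were DESeq2 1.42.0, other scalings and read filters, a replicate block, summed neighbouring junctions, strict gene placement and each library left out. Motifs and intervals were computed in Python 3.11.15 with scipy 1.17.1. By rule, the main circle of each gene was named if it had at least 20 reads. So was any circle with at least 200 reads or an unadjusted p under 0.05 in edgeR. Others were chosen after their values were seen. From the further genes, the 4 with the lowest p in each direction are named. The members and lists were chosen with earlier results of these data known.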

Additional observations from a re-analysis of the deposited data

How the results depend on the processing

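In each alternative, none of the 9 genes that had an adjusted p passed (6 of them in DESeq2 and with at least 50 reads, 7 to 9 with 1 library left out, all 9 otherwise), and circRNA.37242 of Irf2 passed in DESeq2 alone. With RLE factors, library totals, SRPBM depth, summed neighbours, strict placement, no read filter, the replicate block and DESeq2, 8 of the 9 genes had values below 0, as in the report. SRPBM depth moved the median of all genes by -0.21 and of all circRNAs by -0.24. Over all genes 0 passed in the report's fit, and 55 in DESeq2, 12 with no read filter, 20 with the replicate block and 0 to 2 with 1 library left out. Over all circRNAs, 3 passed in the report's fit, against 106 in DESeq2 (1 of them from these genes), 61 with no filter, 61 with the replicate block, 0 with at least 50 reads, 0 with junctions within 5 nt summed and 0 to 4 with 1 library left out. Same-numbered libraries did not deviate together (correlations of 0.03 over genes and -0.03 over circRNAs), so the block rests on numbers only. With at least 50 reads, 5 genes were below 0 and 1 above, and 6 circRNAs below and 2 above. With no filter, 33 circRNAs were below and 16 above. With 1 library left out, 5 to 7 genes were below 0 and 1 to 2 above, and 7 to 10 circRNAs below and 4 to 9 above, partly since fewer passed the read filter.

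Some values changed sign when 1 library was left out. The log2 change then ranged from -7.84 to 0.0085 for Eif2ak2 (highest without IL-1β replicate 1, and lowest without IL-1β replicate 2, where that group was at 0), from -0.77 to 0.40 for Rnf213 (highest without control replicate 2) and from -0.19 to 1.10 for Herc4. It ranged from -0.93 to 0.17 for circRNA.557, from -1.48 to 0.014 for circRNA.4935 and from -0.27 to 0.13 for circRNA.37241. With the replicate block it was 1.45 for circRNA.4935. The cause was not tested. Without a change of sign, leaving out 1 library gave -6.86 to -1.53 for Irf1, -6.52 to -1.60 for Znfx1, -2.34 to -0.65 for Ddx58, -7.10 to -2.88 for Traf6, -7.06 to -1.88 for Sp100 and 0.17 to 1.33 for Samhd1, and the lowest values of Irf1, Znfx1, Traf6 and Sp100 come from an IL-1β group left at 0. For Tank it was 0.61 without control replicate 2, and without control replicate 1 the control was at 0. For circRNA.37242 against the rest of Irf2, leaving out 1 library gave -1.69 to -1.16, with unadjusted values in edgeR from 0.0613 to 0.228. Depth limits these values: 32 of the 49 circRNAs had under 20 reads.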
